A study of Mus musculus with 6 samples.

Results

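The cytosolic small ribosomal subunit is built on 1 ribosomal RNA and a fixed set of proteins, most of them encoded by genes named Rps. The set described here holds every gene of the deposited tables named Rps with a number, with or without a short suffix letter, together with Rpsa, and leaves out pseudogenes. It came to 33 of 23725 genes, of which 31 had enough counts to be tested. The RNA came from lymph node regulatory T cells (Tregs), taken from C57Bl/6 mice that were all immunised with myelin oligodendrocyte glycoprotein (MOG), a protein of the myelin sheath. The groups are 3 libraries of wild-type (WT) mice and 3 of MOG knockout (MOG KO) mice, each made from the RNA of 500 cells. The sources used here do not give how the knockout allele was made, the age of the mice, or whether each replicate was a separate mouse. The p-values below therefore measure the spread between these libraries, part of which may be technical.

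Small subunit proteins stabilise the folded ribosomal RNA and line the channel through which messenger RNA (mRNA) is threaded and decoded. The subunit has a head and a body with a platform, and the decoding site lies between them. A core of its proteins has counterparts in bacteria, and the others are found only outside bacteria. The mRNAs of vertebrate ribosomal proteins usually begin with a run of pyrimidines, the terminal oligopyrimidine motif, through which the kinase mTOR and the RNA-binding protein LARP1 control their translation together. T cells raise ribosome production when they are activated, and the set is no marker of Tregs. The values below are mRNA levels, and protein synthesis was not measured.

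The sequences around the transcription start show which members have such a run at the annotated start and which do not. Promoters were found for 24 of the 33 members in the RefSeq table on GRCm38.p6. A pyrimidine run was counted where at least 5 C or T bases, beginning with C, started within 5 bases of the annotated start on the coding strand. By that rule 12 of 24 members (50%) had a run, against 18.6% of the 27025 genes in the table and 21.9% of the 3264 tested genes that had a promoter. The 9 windows below hold 15 bases before and 15 after the start of genes that recur in the results, with the run in capitals.
Rps6: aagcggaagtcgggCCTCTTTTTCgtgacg
Rps27: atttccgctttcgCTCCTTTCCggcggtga
Rps27l: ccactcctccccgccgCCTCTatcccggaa
Rps9: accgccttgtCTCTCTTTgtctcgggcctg
Rpsa: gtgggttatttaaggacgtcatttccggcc
Rps3: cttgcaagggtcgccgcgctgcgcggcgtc
Rps25: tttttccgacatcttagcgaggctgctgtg
Rps4x: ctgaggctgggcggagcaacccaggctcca
Rps12: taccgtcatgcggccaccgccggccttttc

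These windows lie at chr4:86857353-86857382 (Rps6, minus strand), chr3:90213634-90213663 (Rps27, minus), chr9:66946071-66946100 (Rps27l, plus), chr7:3704026-3704055 (Rps9, plus), chr9:120127751-120127780 (Rpsa, plus), chr7:99483695-99483724 (Rps3, minus), chr9:44407699-44407728 (Rps25, plus), chrX:102189377-102189406 (Rps4x, minus) and chr10:23787195-23787224 (Rps12, minus). Rps6 and Rps27 have runs of 10 and 9 pyrimidines across the annotated start. The run of Rps27l, the paralog of Rps27, is 5 bases long. In Rps12 a run of pyrimidines closes the window, downstream of the limit used in the search, so the absence of capitals speaks only of these letters at the annotated start. In the whole promoter, 250 bases before to 50 after the start, the letters CCGGAAG, which ETS factors bind, were found on either strand in 11 of 24 members (45.8%), against 9.93% of all genes and 24.4% of the tested genes. ATGGCG, the core bound by YY1, was found in 7 (29.2%), against 10.2% and 20.3%, and TATAAA in 2 (8.33%), against 15.7% and 9.04%. The reverse strand of CCGGAAG holds a short pyrimidine run, so these matches can overlap the runs counted above, which was not examined, and a match describes letters and not binding.

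Gene counts totalled 2717969 to 4472549 per library, with the lowest total in WT replicate 1. Most genes were missing from some libraries: of 7909 genes at 10 reads-per-million (RPM) or more in at least 1 library, 704 (8.9%) reached it in all 6. WT replicate 3 stood apart, with 2701 genes at that level against 3265 to 4440 in the others, and with 8.22 RPM of Foxp3, the defining Treg factor, against 326 to 690 RPM elsewhere. Cd3g, a T cell receptor subunit, was also low there, at 1.42 RPM against 177 to 272 RPM elsewhere. Of the other 6 Treg and T cell markers listed, Ctla4 and Cd4 were lowest there too. Ctla4 had 74.3 RPM against 450 to 612 RPM elsewhere, and Cd4 had 170 RPM against 419 to 722 RPM. Cd3e, Cd3d, Il2ra and Ikzf2 had their lowest value in another library. All 6 were at 74.3 RPM or more in every library. Of 5 B cell markers 4 were in the table, with a summed level of 2.21 to 206 RPM in the WT libraries and 0 to 130 RPM in the MOG KO libraries, and Cd79a at 0 throughout. The CD8 and NK markers were at 0 in all 6 libraries, and the 5 myeloid markers summed to 5.14 to 15.5 RPM. The 3 erythroid markers in the table summed to 68.9 to 151 RPM in WT and 20.1 to 66.1 RPM in MOG KO. For the 3 stromal markers the sums were 2.27 to 93.5 RPM and 28.4 to 461 RPM. These stromal sums were mostly Pecam1, which had 461 RPM in MOG KO replicate 1. Col1a1 and Col3a1 were at 2.75 RPM or less in every library. The part of other cell types in the results below was not tested. Mog itself had 1 count, in WT replicate 1, so in these cells it does not check the genotype labels. In bulk RNA, fewer cells of a type and less RNA per cell cannot be told apart.

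Small subunit genes were read in nearly every library. Of the 33, 27 were at 10 RPM or more in all 6 libraries. Among the 31 tested members that is 87.1%, against 17.2% of all 4088 tested genes and 67.8% of the 500 tested genes of highest mean. The filter that chose the tested genes asks for counts in several libraries, and the members also had a higher median level than the tested genes, 215 against 142 RPM. Of the 186 values of these 31 members, 4 fell under 10 RPM. The range between the highest and the lowest library on the log2(RPM + 1) scale had a median of 1.82 over the 31 members, 7.61 over all tested genes and 2.81 over the 500 highest. It was under 2 for 18 members, under 1 for 3 and over 4 for 5.

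**Figure D1:**
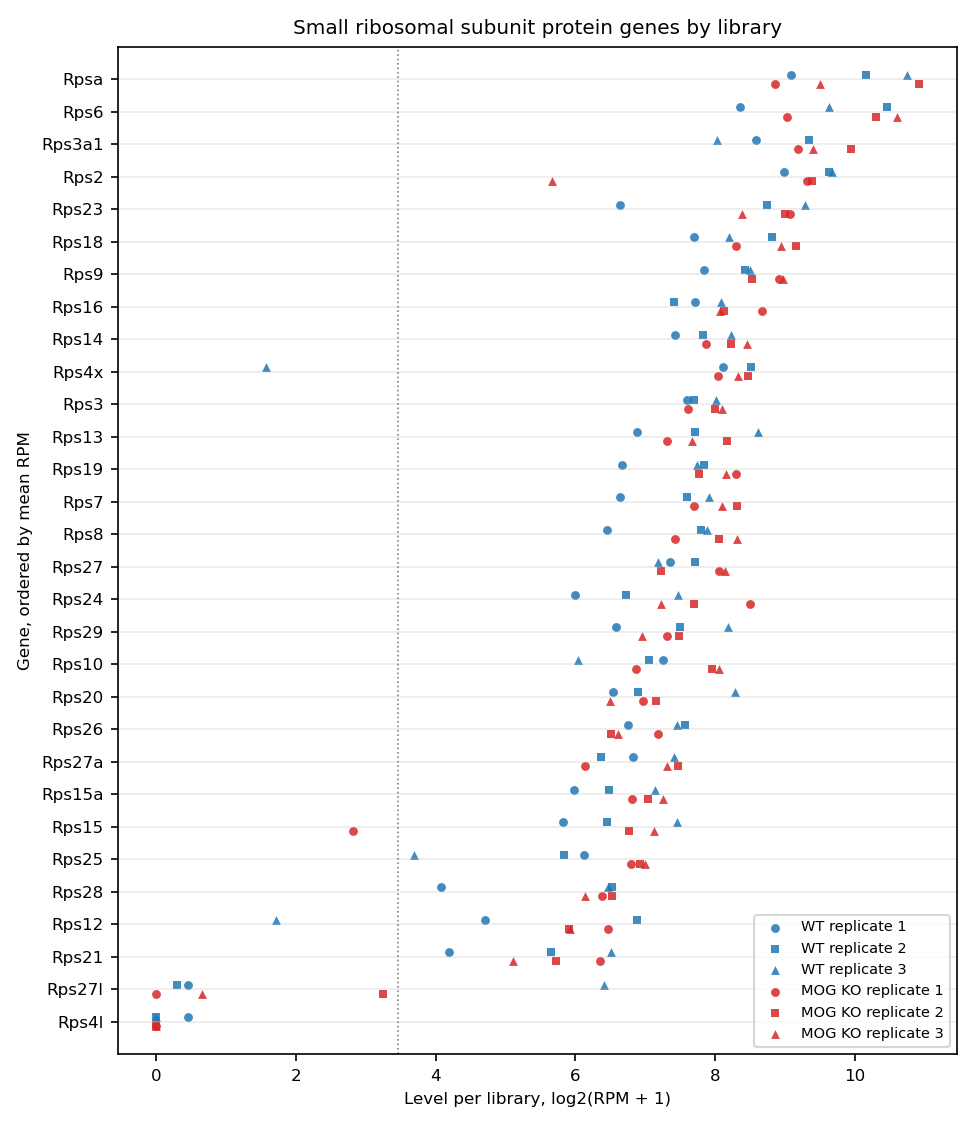
Level of the small subunit genes reported here in each of the 6 libraries, as log2(RPM + 1), with 1 row per gene and 1 point per library, coloured by genotype and with a dotted line at 10 RPM. The median range between the highest and lowest library over the 31 tested members was 1.82. Rps4x, Rps12, Rps15, Rps2 and Rps25 are among the genes with a library far below the rest.

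The highest members by mean level were Rpsa, Rps6, Rps3a1 and Rps2. Below, values per gene run through WT replicates 1, 2, 3 and then MOG KO replicates 1, 2, 3. Rpsa, which also acts at the cell surface as a laminin receptor, had 542, 1140 and 1710 RPM, then 463, 1931 and 723 RPM. Rps6, the protein phosphorylated by the S6 kinases downstream of mTOR, had 326, 1403 and 790 RPM, then 521, 1265 and 1561 RPM. In both genes each genotype held low and high libraries, and the groups overlapped over most of their span. Rps3a1, a platform protein, had 383, 651 and 259 RPM, then 580, 981 and 676 RPM. Its highest value lay in MOG KO replicate 2 and its lowest in WT replicate 3, and the groups overlapped.

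The first 3 of these genes, Rpsa, Rps6 and Rps3a1, held 19.7% to 38.3% of all small subunit counts of a library. Their coding sequences, 747 to 885 bases, are among the longer ones of the set, and over the 31 genes mean RPM followed coding length with a Spearman rho of 0.72 (Pearson r = 0.71 for log2 RPM). This is a description across genes that share their libraries. Per kilobase of coding sequence the highest levels included Rps6 at 1309 RPM per kb, Rpsa at 1226, Rps29 at 1015 and Rps23 at 981. Rps29, a zinc-binding protein of the head, has the shortest coding sequence, 168 bases. Among the lowest were Rps21 at 216 and Rps12 at 148 RPM per kb, and the median was 408. Reads in untranslated exons are counted too, which raises this figure most for short coding sequences.

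Rps3, Rps27, Rps14 and Rps26 were among the steadiest members. Rps3, which forms part of the entry of the mRNA channel and is also linked to DNA repair, had 192, 206 and 258 RPM, then 194, 255 and 272 RPM, a span of 1.41-fold on the RPM + 1 scale. Its WT and MOG KO values interleave, and no library is far from the rest. Rps14, a platform protein whose reduced dose is known from a myelodysplastic anaemia, had 171, 226 and 298 RPM, then 232, 299 and 351 RPM. Rps26, which contacts the mRNA upstream of the start codon, had 106, 189 and 173 RPM, then 144, 90.3 and 96.8 RPM. The lowest value of Rps14 was in WT replicate 1 and those of Rps26 in MOG KO replicates 2 and 3, and the groups of both genes overlapped.

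The widest ranges came from libraries with very low values, found in both genotypes. Rps4x, the X-linked member of the S4 family, had 274, 364 and 1.98 RPM, then 261, 352 and 319 RPM, and its low value rests on 7 counts. Rps12, a protein of the beak of the head, had 25, 117 and 2.27 RPM, then 87.6, 58.9 and 59.7 RPM, with 8 counts in WT replicate 3. Both genes were at their lowest in WT replicate 3, the library with the fewest genes present. Rps15, a head protein near the decoding site, had 55.6, 86.5 and 174 RPM, then 6.01, 108 and 139 RPM. Rps2, at the mRNA entry, had 505, 792 and 814 RPM, then 634, 671 and 49.6 RPM. The gap of Rps15 lay in MOG KO replicate 1 and that of Rps2 in MOG KO replicate 3. Such gaps are common in these libraries, where the median range of all tested genes was 7.61. Their cause was not tested.

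**Figure D2:**
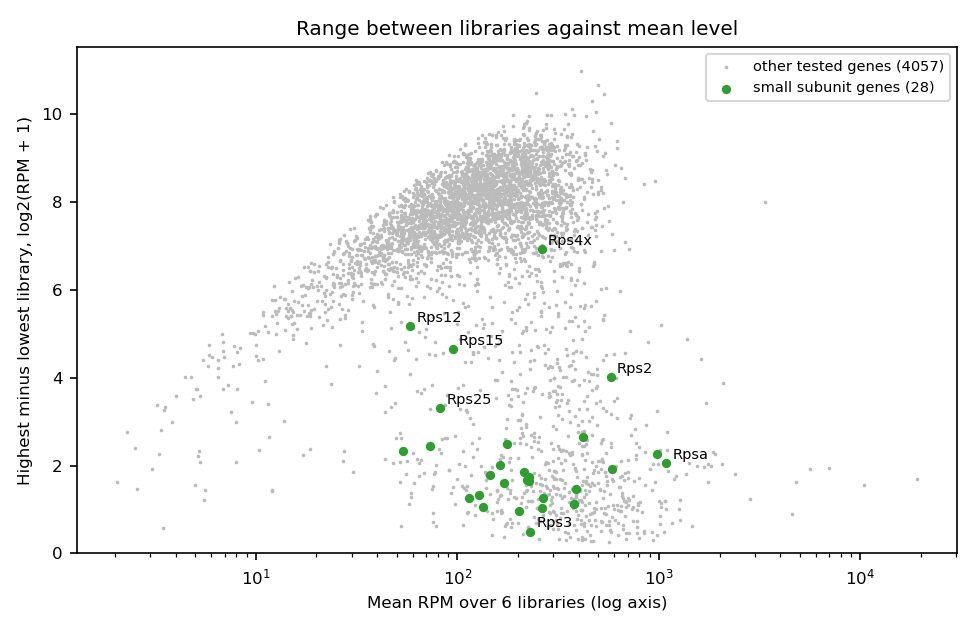
Range between the highest and lowest library, as log2(RPM + 1), against mean RPM over the 6 libraries (log axis), with the small subunit genes reported here in green and the other tested genes in grey. The members sit mostly in the lower band, with Rps3 lowest and Rps4x at the height of the grey cloud.

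WT replicate 1 was low for nearly the whole set. In it 29 of the 31 tested members lay below the median of the other 5 libraries, and the median deviation was -0.83 on the log2 scale. The same library held the lowest value of 15 members and the highest of none. It held the lowest value of 10.5% of all tested genes, and 48.7% of those genes lay below the median of the other 5 libraries. Among the 500 highest genes that share was 53%, with a median deviation of -0.05. The large subunit genes moved with the small ones: 46 of 48 lay below, with a median deviation of -0.84. The largest drops were not limited to rare members, since Rps23, which reaches into the decoding site, had 98.2 RPM there against 332 to 620 RPM elsewhere. Rps28, a head protein, had 15.8 RPM there against 69.6 to 90.8 RPM. WT replicate 1 also had the lowest total count and the highest sum of the 8 Treg markers, 4576 RPM against 2658 to 4335 RPM. Whether either has a part in its low ribosomal protein level was not tested.

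**Figure D3:**
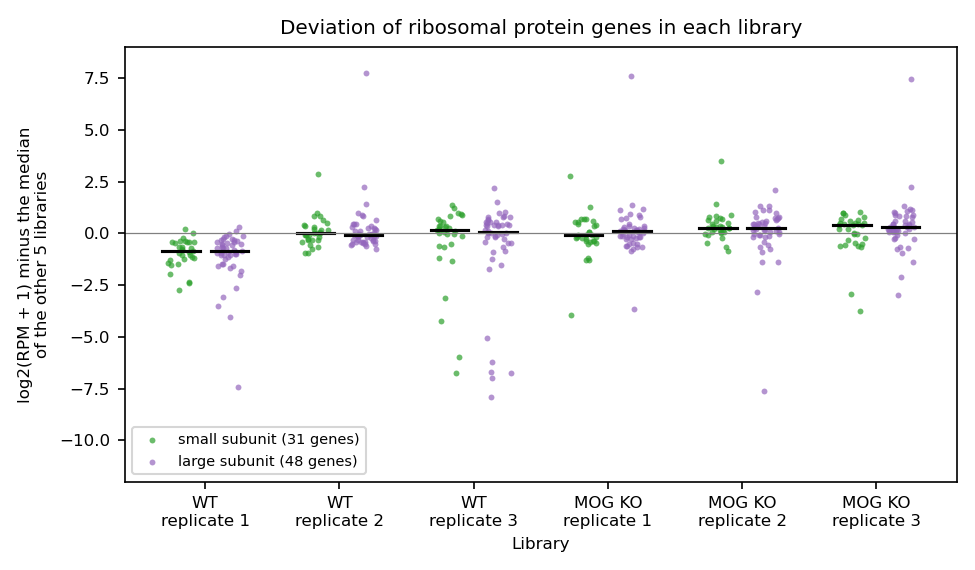
Deviation of each tested ribosomal protein gene from the median of the other 5 libraries, as log2(RPM + 1), in each library, for the small subunit (31 genes) and the large subunit (48 genes), with black bars at the medians. In WT replicate 1 the medians lie at -0.83 and -0.84, and in the other 5 libraries they lie between -0.1 and 0.39.

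Summed over all 33 genes, the small subunit took 0.505%, 0.928% and 0.933% of gene counts in the WT libraries and 0.793%, 1.09% and 0.954% in the MOG KO libraries. WT replicate 1 was the lowest and the groups overlapped. The mean was 0.789 ± 0.246% in WT and 0.946 ± 0.149% in MOG KO (SD, n = 3 per group), a difference smaller than the WT spread. Without WT replicate 1 the difference of 0.157 percentage points was 0.015. The large subunit took 0.787%, 1.34% and 1.47% in WT and 1.44%, 1.7% and 1.84% in MOG KO. The ratio of small to large subunit counts was 0.642, 0.694 and 0.633 in WT and 0.552, 0.642 and 0.518 in MOG KO, with overlapping groups. Its mean was 0.656 ± 0.033 in WT and 0.571 ± 0.064 in MOG KO (SD, n = 3 per group).

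**Figure D4:**
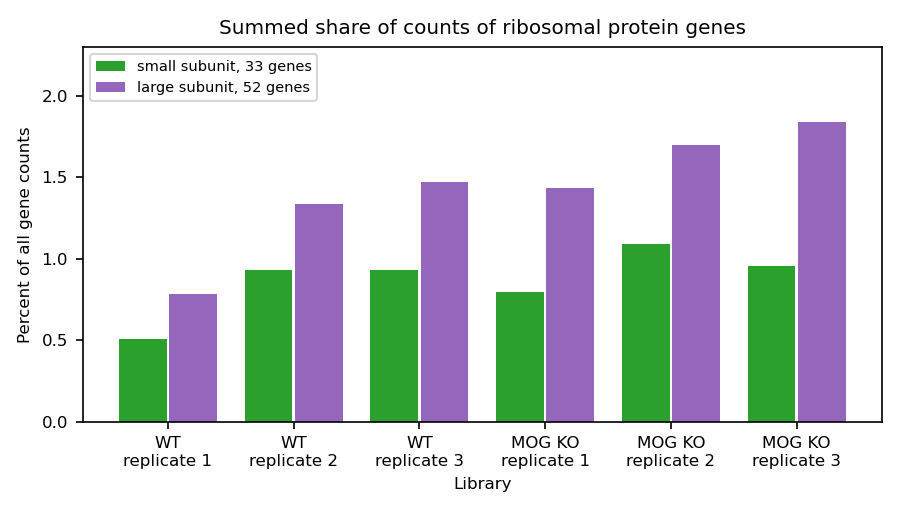
Percent of all gene counts in the 33 small subunit genes (green) and 52 large subunit genes (purple) in each library, as bars from 0. WT replicate 1 is the lowest for both, at 0.505% and 0.787%, and for the small subunit the remaining WT bars lie between the lowest and the highest MOG KO bar.

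No small subunit gene differed between the genotypes in the test. edgeR's quasi-likelihood test with Benjamini-Hochberg adjustment put 0 of the 31 tested members past an adjusted p of 0.05, where 0% of all 4088 tested genes passed. At an unadjusted p under 0.05 there were 0 members, against 5.11% of all tested genes. The lowest unadjusted p of a member was 0.222 (Rps3a1). DESeq2 gave 3300 genes an adjusted p and called 6.36% of them and 0 members, and limma-voom called 0% and 0 members. The adjusted p in edgeR was 1 for each member. The log2 fold changes, MOG KO minus WT, ran from -0.73 to 1.37 with standard errors (SE) of 0.58 to 2.19, and all 31 of the 95% intervals held 0. The median SE was 1.49 for the members and 2.42 for all tested genes, so a change of the size of these values was not detectable for most members.

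Rps3a1, with a mean of 431 ± 201 RPM in WT against 745 ± 210 RPM in MOG KO (SD, n = 3 per group), had a log2 fold change of 0.77 ± 0.58 (SE, 95% interval -0.57 to 2.1). This is the narrowest interval of the set and leaves room for a change above 4-fold upward and for a small decrease. Rps2 averaged 704 ± 173 RPM in WT against 452 ± 349 RPM in MOG KO, with a log2 fold change of -0.73 ± 0.9, which was -0.18 without MOG KO replicate 3. The size of this value, though not its sign, rests on the gap of Rps2 in that library.

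Rps25, a head protein that some viral and cellular mRNAs need for internal initiation, had 68.8, 56.1 and 11.9 RPM, then 110, 120 and 126 RPM. Every MOG KO library lay above every WT library, and the MOG KO values were close together. Its log2 fold change was 1.37 ± 1.77 (SE, 95% interval -2.71 to 5.45), and 0.95 without WT replicate 3, where it had 42 counts. Rps9, a body protein at the mRNA entry, had 228, 345 and 360 RPM, then 482, 368 and 503 RPM. Its groups also did not overlap in RPM, although MOG KO replicate 2 was close to WT replicate 3, and its log2 fold change was 0.46 ± 0.89 (SE, 95% interval -1.58 to 2.51). With libraries scaled by TMM, Rps25 alone kept separate groups. These are 2 of 31 members above WT in all MOG KO libraries, where 5.97% of all tested genes were, and 0 of 31 members were below, against 4.57% of all tested genes. The first count is near its background.

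The other members of lowest p in each direction had overlapping groups. Rps24, which is mutated in Diamond-Blackfan anaemia, had 62.9, 105 and 176 RPM, then 360, 206 and 149 RPM, with a log2 fold change of 0.94 ± 1.61. The value for Rps6 was 0.38 ± 0.62 and that for Rpsa -0.2 ± 0.65. Rps20, a head protein ubiquitinated on collided ribosomes, had 91.6, 118 and 310 RPM, then 124, 141 and 89.5 RPM, with -0.67 ± 1.67. Only WT replicate 3 set the WT mean of Rps20 above that of MOG KO, and without it the value was 0.2. Rps26 had -0.58 ± 1.65, and Rps29, at 94.9, 179 and 290 RPM, then 158, 178 and 123 RPM, had -0.4 ± 1.59. The value of Rps29 was 0.19 without WT replicate 3. Rpsa was 0.35 without that library, and Rps6 was -0.02 without WT replicate 1.

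**Figure D5:**
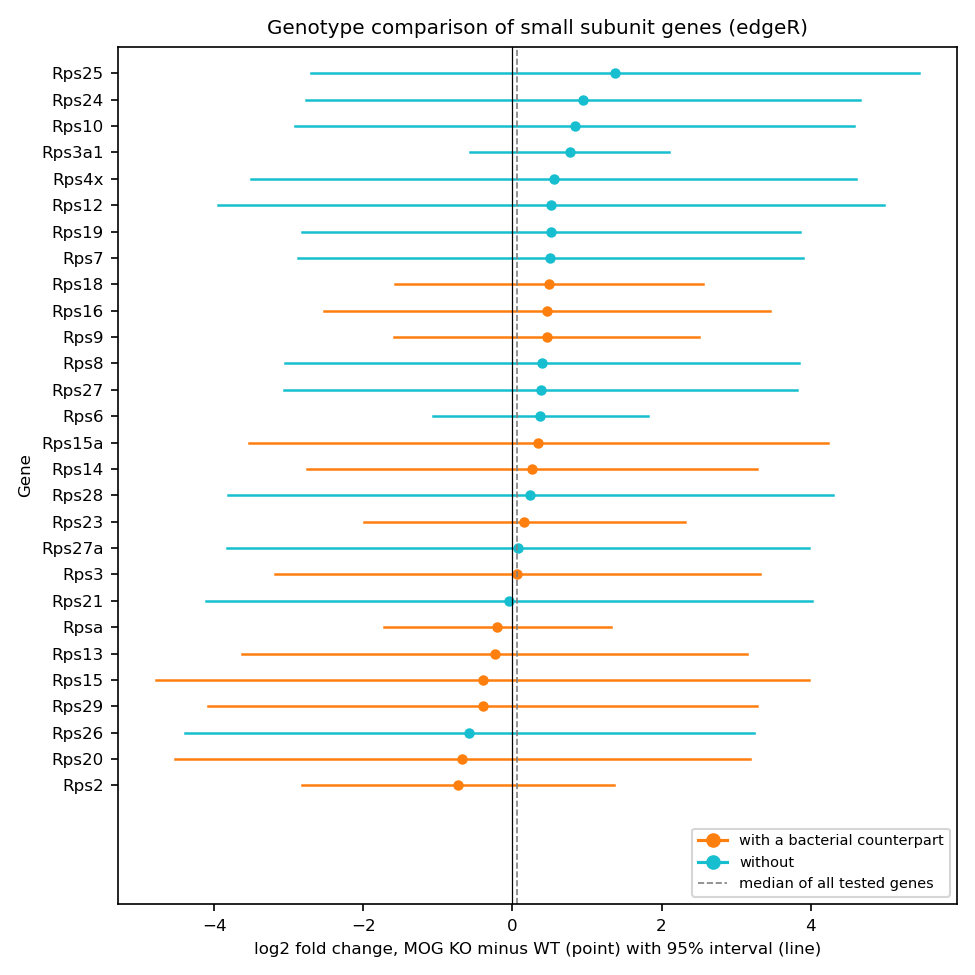
Log2 fold change of MOG KO minus WT for each tested small subunit gene reported here (point) with its 95% interval (line) from edgeR, coloured by whether the protein has a bacterial counterpart, with a dashed line at the median of all tested genes. Every line crosses 0, and the points run from -0.73 (Rps2) to 1.37 (Rps25).

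Of the 31 values 22 were positive and 9 negative (71% positive, median 0.38), beside 2128 positive and 1960 negative over all tested genes (52.1%, median 0.06). This count depends on WT replicate 1, in which the members were low together: without it 18 of 32 tested members were positive with a median of 0.07, beside 53.8% of all genes and a median of 0.13. Without WT replicate 3, which held 7 of the lowest and 7 of the highest member values, 27 of 31 were positive (median 0.56, all genes 0.15). Members of 1 complex that rise and fall together within a library are not independent values.

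By position in the subunit the values were alike. The 14 head proteins had 10 positive and 4 negative values (median 0.35) and the 17 body and platform proteins 12 and 5 (median 0.38). By ancestry, the 15 members with a bacterial counterpart had 8 positive and 7 negative values (median 0.07), and the 16 without had 14 positive and 2 negative (median 0.51). The difference between these subsets was not tested. In the counts it depended on WT replicate 3: without that library 14 of 15 and 13 of 16 were positive (medians 0.44 and 0.62). Without WT replicate 1 both subsets had fewer positive values, 6 of 15 and 12 of 16 (medians -0.08 and 0.23). With each library left out in turn, the median stayed higher in the members without a counterpart. The subsets also differ in level, with median mean RPM of 263 and 170.

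The paralogs had very unequal levels. Rps27, a zinc finger protein of the platform, had 163, 209 and 144 RPM, then 264, 149 and 283 RPM, and was even across libraries. Rps27l, its paralog and a known target of p53, had 0.368, 0.224 and 83.9 RPM, then 0, 8.48 and 0.58 RPM. These are 1, 1 and 296 counts in WT and 0, 37 and 2 counts in MOG KO, so that WT replicate 3 alone held most of them, and the 0 allows up to 0.693 RPM in that library. Per kilobase of coding sequence the pair stood at 801 and 61.9 RPM per kb. Rps4l, a second member of the S4 family beside Rps4x, had 1 count in all 6 libraries together. Where Rps4x was nearly absent, in WT replicate 3, Rps4l had 0 counts. Rps27a, made as a fusion with ubiquitin and cleaved after translation, had 112, 81.4 and 169 RPM, then 69.1, 175 and 158 RPM, with low and high libraries in both genotypes (log2 fold change 0.07 ± 1.69).

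How alike the levels of the members were from library to library was compared between and within genotypes. Over the 31 genes, log2(RPM + 1) of pairs of libraries of the same genotype had Pearson r of 0.5 to 0.8 (median 0.62, 6 pairs) and of different genotype 0.39 to 0.89 (median 0.67, 9 pairs). The medians over all tested genes were 0.15 and 0.16. The median within a genotype was not above that across genotypes. The points share gene length and base composition, and these values are descriptions.

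Ribosomal protein genes have many processed pseudogenes, so reads could match several places. Of the 100-base windows of a member's coding sequence, a median of 70.7% were found without a mismatch in a transcript of another gene in GENCODE vM21, and 21 of 31 members were over 50%. 28 of 31 shared at least 1 window with a pseudogene, and Rps2 shared windows with 36 other genes. Rps3 and Rps21 shared none. Rps3 had the smallest range of the set, while Rps21, at 17.3, 49.4 and 90.4 RPM, then 80.9, 51.8 and 33.3 RPM, varied more. Rps6, Rps23, Rps16, Rps13, Rps27, Rps29, Rps27a, Rps28 and Rps12 had every window shared, so their levels are the most uncertain in this respect. Over the 31 genes the shared percentage and the range between libraries had a Spearman rho of 0.14. How reads with several matches were treated is not given in the sources used, and its part in these levels was not tested. The 3 named small subunit pseudogenes in the table include Rps15a-ps4, at 13.2, 26.4 and 38 RPM, then 50.1, 86.7 and 84.3 RPM, and Rps15a-ps6, at 18.8, 31.7 and 68 RPM, then 55.5, 93.5 and 95.9 RPM. Both were lowest in WT replicate 1, as was Rps15a itself, at 62.2, 88.1 and 140 RPM, then 111, 130 and 151 RPM. None of the 3 pseudogenes passed the test.

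Genes that work with the small subunit were given as lists beside it, and 0 members of any of them passed the test. Fau and Gnb2l1 encode small subunit proteins under other names, the first fused to a ubiquitin-like protein and the second the scaffold RACK1. Fau had 118, 166 and 392 RPM, then 252, 378 and 250 RPM (log2 fold change 0.27 ± 1.37). Gnb2l1 had 281, 253 and 255 RPM, then 187, 251 and 31 RPM (-0.82 ± 1.57). Its MOG KO values all lay below the WT values, with 251 RPM in MOG KO replicate 2 against 253 RPM in WT replicate 2. Of 52 large subunit genes 48 were tested, with 34 positive and 14 negative values and a median of 0.35. Over all tested genes 52.1% were positive, with a median of 0.06. Of the 48, 46 lay below the median of the other 5 libraries in WT replicate 1. All MOG KO libraries lay above WT for 8 of the 48, against 5.97% of all tested genes, and below for 1, against 4.57%. The part of WT replicate 1 in these counts was not tested.

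The kinases and assembly factors were read far less evenly than the subunit itself. Of 8 genes taken by name as S6 kinases 4 were tested, 1 positive and 3 negative. Their values ran from -4.93 (Rps6kb2) to 0.32 (Rps6kb1), and the median of -2.29 lay near none of them. Rps6kb2 had 69.5, 0 and 372 RPM, then 0, 15.8 and 0 RPM, and Rps6ka4 had 423, 385 and 0.283 RPM, then 0, 1.15 and 33.3 RPM. Each was near 0 in libraries of both genotypes, and their groups overlapped. Rps6kb1, the main kinase of Rps6, had 38.6, 132 and 494 RPM, then 276, 162 and 478 RPM, with overlapping groups. Rps6ka1, a kinase of the MAP kinase pathway that also acts on Rps6, had 347, 669 and 748 RPM, then 626, 570 and 580 RPM. Among 34 assembly factors 9 were tested (6 positive, 3 negative, median 0.48) and 1 was at 10 RPM or more in all 6 libraries. Ncl, which encodes nucleolin, had 558, 251 and 4.25 RPM, then 513, 980 and 335 RPM. Its low library was WT replicate 3, as for Rps4x and Rps12. Of 8 genes that control mRNAs with the pyrimidine motif 5 were tested (3 positive, 2 negative), and Larp1 had 761, 230 and 301 RPM, then 4.62, 418 and 6.67 RPM. Of 29 genes of the mitochondrial small subunit, a separate ribosome, 15 were tested, 8 positive and 7 negative with a median of 0.09. Only 2 of them were at 10 RPM or more in all 6 libraries, and their median range was 7.18 against 1.82 for the cytosolic set. Mrps18a had 65.1, 69.8 and 132 RPM, then 0.231, 0 and 0 RPM, and did not pass (adjusted p = 0.602 in edgeR).

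The following members described above are protein-coding genes, given with their GRCm38 positions and Entrez identifiers. On chromosome 9 lie Rpsa (16785) from 120127689 to 120132369, Rps25 (75617) from 44407139 to 44410427 and Rps27l (67941) from 66946086 to 66949516. On chromosome 7 lie Rps3 (27050) from 99477896 to 99483738, Rps9 (76846) from 3703993 to 3706897 and Rps15a (267019) from 118104372 to 118116188. Rps21 (66481) lies on chromosome 2 from 180257377 to 180258445. On chromosome 10 lie Rps12 (20042) from 23785183 to 23787275, Rps15 (20054) from 80292453 to 80294114 and Rps26 (27370) from 128624534 to 128626747. On chromosome 4 lie Rps6 (20104) from 86854660 to 86857412 and Rps20 (67427) from 3831334 to 3835665, and on chromosome 3 Rps3a1 (20091) from 86137940 to 86142702 and Rps27 (57294) from 90212522 to 90213651. Rps2 (16898) lies on chromosome 17 from 24718116 to 24721929, Rps24 (20088) on chromosome 14 from 24487125 to 24496959, Rps27a (78294) on chromosome 11 from 29545846 to 29548109, Rps29 (20090) on chromosome 12 from 69157722 to 69159186 and Rps4x (20102) on chromosome X from 102184941 to 102189394.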

How the data were processed

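The authors deposited raw exon read counts for each gene and the same data scaled to reads-per-million (RPM), per the file headers. Dividing each count by its library total gave the RPM back. STAR 2.3.1, R 3.2.2 and build mm10 are named per the submitters' processing notes. Strand setting, counting function and treatment of multiple matches are not given in the sources used. RNA from 500 cells was amplified by 15 PCR cycles and read as single reads of 100 bases, per the labels' protocols, with no molecular identifiers, so floors (3 counts) cover counting error only.

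The test was edgeR 4.0.16, run in R 4.3.3 (filterByExpr, TMM, robust quasi-likelihood, genotype alone), with p-values adjusted by the Benjamini-Hochberg method over 4088 genes with a threshold of 0.05. Each SE was taken as the size of the log2 fold change over the root of its F statistic. Ranges used log2(RPM + 1). Coding lengths and shared windows came from GENCODE vM21, with 32 of 33 members matched. Fitting steps were tested on simulated data. With a low spread, 100 of 100 4-fold and 100 of 100 64-fold changes were recovered. With the spread of these libraries, 2 of 90 4-fold and 17 of 85 64-fold changes were recovered. The changed genes were drawn from the tested genes as a whole. These counts therefore do not give the recovery for the members, whose median SE was 1.49 against 2.42 for all tested genes. Alternatives were DESeq2 1.42.0 and its size factors, limma-voom (limma 3.58.1), 2 filters, pseudocounts, a replicate block, and leaving out each library. Values per library are given for the 5 highest members, the 5 widest and 5 steadiest, those under 10 RPM in some libraries, paralogs, and up to 5 of lowest p per direction; of each related list up to 2 genes of lowest p are eligible. A few eligible genes are not reported. The values of Rps9, Rps21, Rps15a, Rps23, Rps28, Rps6kb1 and Rps6ka1, and of single B cell and stromal markers, were added after they were seen. Members and lists were chosen with earlier results of these data known.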

Additional observations from a re-analysis of the deposited data

How the results depend on the processing

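No member passed an adjusted p of 0.05 in edgeR, DESeq2 or limma-voom, under any filter or scaling, or with any library left out. With all genes kept, 23 of 33 members were positive (median 0.33) while the median of all genes moved to -0.18. Of the 16 tested members reported by rule, 7 kept their sign in every setting: Rps14, Rps2, Rps24, Rps25, Rps26, Rps27 and Rps3a1. Leaving out each library in turn gave log2 fold changes of -1.03 to 0.35 for Rpsa, -0.0148 to 2.32 for Rps12, -0.96 to 0.28 for Rps15, -0.704 to 0.19 for Rps29, -0.00934 to 1.17 for Rps4x, -0.0244 to 0.89 for Rps6, -0.0318 to 0.299 for Rps3, -0.96 to 0.204 for Rps20 and -0.18 to 0.496 for Rps27a. Limma-voom gave -0.297 for Rps6, and DESeq2 and its size factors gave -0.0134 and -0.0135 for Rps27a. The cause was not tested.

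Members above WT in all MOG KO libraries numbered 1 with TMM-scaled values and 2 to 8 with a library left out, and those below 0 to 3. Fewer samples make separation easier for every gene. The shares of all tested genes in these settings are not given here, so these counts cannot be placed above or below their background. The difference in summed share ran from 0.015 to 0.234 percentage points. The labels do not say whether the replicate numbers pair the samples. Deviations from the group means had correlations of -0.0222, -0.00215 and -0.0176 between same-numbered libraries over 4088 genes. Between libraries of different number they were -0.016 to 0.0374. With so many gaps in these libraries, such values cannot decide whether the samples were paired. With the number as a replicate block, 0 members passed and 23 of 31 were positive (median 0.44).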
